A study of Mus musculus with 6 samples.

Results

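The 10 genes described here mark the epithelium of the choroid plexus: Ttr, Enpp2, Sostdc1, Kl, Folr1, Prlr, Aqp1, Kcnj13, Clic6 and Slc4a5. They were taken by matching the Ensembl identifiers of 29872 genes to these symbols, and all 10 were found and passed the filter on low values. RNA was sequenced from hippocampus of C57BL/6 J mice in 6 libraries, 3 labelled shHepaCAM with the genotype HepaCAM knockdown and 3 labelled shControl with the genotype WT. In the knockdown group an adeno-associated virus (AAV), which delivers genes into cells, was injected on each side into the CA1 field of the hippocampus, to lower hepaCAM, an astrocyte adhesion molecule, through a short hairpin RNA. The labels do not give the age of the mice, the promoter of the vector, whether control mice received a vector, or whether each library came from a separate mouse, so the spread behind each p-value is that between libraries and may be technical.

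The choroid plexus is a folded sheet of secretory epithelium over leaky capillaries that hangs into the brain ventricles, and the plexus of the lateral ventricle lies directly against the hippocampus. Its epithelial cells make cerebrospinal fluid: pumps, exchangers and channels move sodium, chloride, bicarbonate and potassium across the cell, and water follows through aquaporin 1. The same cells secrete transthyretin and growth factor regulators into the fluid and carry folate and hormones between blood and brain. Neurons and most glia of the hippocampus express several of these genes little or not at all, so in bulk tissue their level follows both how much of the epithelium is in the sample and how much RNA each epithelial cell holds. In these bulk samples fewer cells of a type and less RNA per cell cannot be told apart.

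All 10 genes had their lowest levels in the same pair of libraries, shHepaCAM replicate 3 and shControl replicate 1, so 1 library of each group stood apart from the other 4. Levels are given as RPKM, the reads of a gene divided by its length and by the depth of its library. Between the highest and the lowest of the 6 libraries the genes differed by 9.45-fold for Kl to 164-fold for Ttr, with a median of 40.2-fold. Neither group was free of this spread, since the highest library exceeded the lowest by 5.12-fold to 89.2-fold within shHepaCAM and by 7.61-fold to 90.5-fold within shControl. The 10 genes together took 0.439, 0.334 and 0.0206% of all reads in shHepaCAM replicates 1, 2 and 3, against 0.0287, 0.766 and 0.624% in shControl replicates 1, 2 and 3. Hepacam itself did not follow this order: it measured 24.4, 22.6 and 20.9 RPKM across shHepaCAM replicates 1 to 3 and at 37.3, 33.4 and 35.9 RPKM across shControl replicates 1 to 3, and its groups did not overlap. Depth was 15816576 to 16384937 reads in shHepaCAM libraries and 14903198 to 17341842 reads in shControl libraries, so depth differed far less than the levels of these genes.

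**Figure D1:**
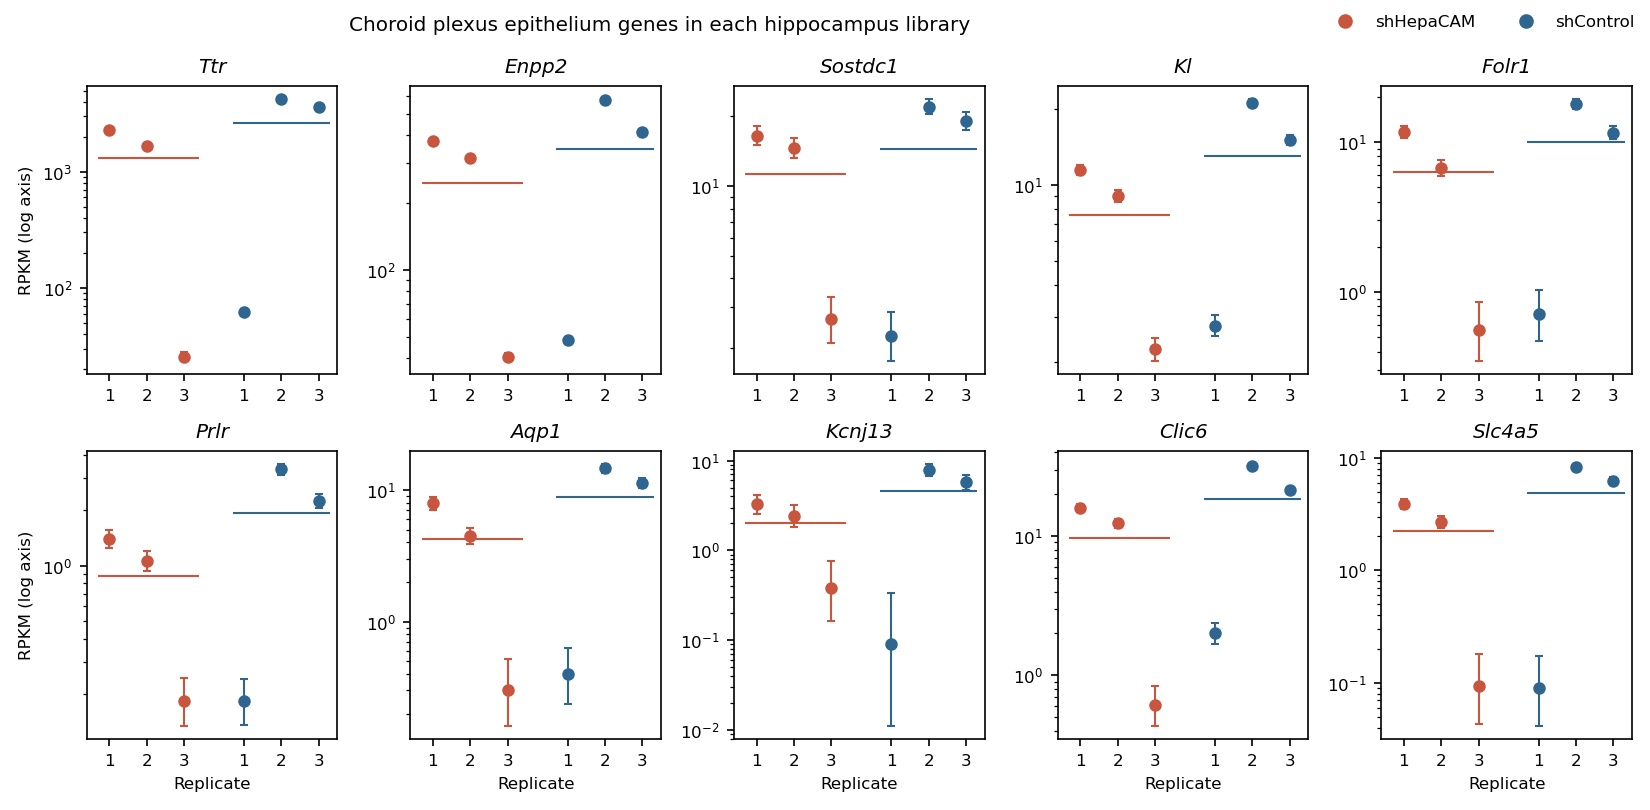
RPKM on log axes of each of the 10 choroid plexus genes in the 3 shHepaCAM and 3 shControl libraries (points), with 95% Poisson intervals for counting error and horizontal lines at the group means. In every panel shHepaCAM replicate 3 and shControl replicate 1 lie below the other 4 libraries.

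Ttr encodes transthyretin, the carrier of thyroid hormone and of retinol-binding protein, which choroid plexus epithelium secretes in bulk. Ttr (ENSMUSG00000061808) measured 2278, 1660 and 25.5 RPKM across shHepaCAM replicates 1 to 3, against 62.1, 4192 and 3617 RPKM across shControl replicates 1 to 3. The groups overlapped widely, and the highest library exceeded the lowest by 89.2-fold within shHepaCAM and by 67.5-fold within shControl. The means were 1321 ± 1164 RPKM in shHepaCAM and 2624 ± 2237 RPKM in shControl (SD, n = 3 each), so that each SD nearly reached its mean. In limma the log2 change on the log2(RPKM + 1) scale was -1.08 (SE 2.13, adjusted p = 0.79). Even in the library with the least, Ttr rested on 510 reads, so counting error was small beside these differences.

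Secreted regulators of growth and lipid signalling followed. Enpp2 encodes autotaxin, the secreted enzyme that makes lysophosphatidic acid, and is also expressed by oligodendrocytes. It measured 379, 316 and 40.5 RPKM across shHepaCAM replicates 1 to 3, against 48.1, 576 and 415 RPKM across shControl replicates 1 to 3. Enpp2 thus kept a level above 40 RPKM in the libraries where Ttr was lowest. Oligodendrocyte markers were measured beside it: the 9 genes used, none at 0 in any library, summed to 821 to 1233 RPKM in shHepaCAM and 797 to 979 RPKM in shControl. The lowest of these sums was in shControl replicate 2, which had the highest Enpp2. Within shHepaCAM the lowest sum, 821 RPKM, was in replicate 3, which had the lowest Enpp2. The part of oligodendrocytes in the Enpp2 level was not tested. Sostdc1, a secreted antagonist of BMP and Wnt signalling, measured 16.5, 14.6 and 2.67 RPKM across shHepaCAM replicates 1 to 3, against 2.26, 22.0 and 19.0 RPKM across shControl replicates 1 to 3. The groups overlapped for both genes, and Sostdc1 had the log2 change nearest to 0 of the 10, at -0.19 (SE 0.86, limma adjusted p = 0.91).

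Among the receptors, Kl encodes klotho, a co-receptor for the hormone FGF23 that is also shed into the fluid. Kl measured 11.5, 9.02 and 2.24 RPKM across shHepaCAM replicates 1 to 3, against 2.78, 21.1 and 15.1 RPKM across shControl replicates 1 to 3. It spanned the narrowest range over all 6 libraries, and its lowest library still held 342 reads. Folr1, the folate receptor through which folate reaches the cerebrospinal fluid, measured 11.7, 6.72 and 0.558 RPKM across shHepaCAM replicates 1 to 3, against 0.712, 17.9 and 11.5 RPKM across shControl replicates 1 to 3. Folr1 was the exception to the order of the others in that shHepaCAM replicate 1 lay slightly above shControl replicate 3. Prlr, the prolactin receptor, measured 1.40, 1.06 and 0.183 RPKM across shHepaCAM replicates 1 to 3, against 0.183, 3.34 and 2.24 RPKM across shControl replicates 1 to 3. Prlr was the lowest of the 10 per length in the 4 libraries where the group was high.

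The channels and transporters of fluid secretion showed the same libraries low. Aqp1, the water channel of the apical membrane, measured 7.92, 4.48 and 0.302 RPKM across shHepaCAM replicates 1 to 3, against 0.400, 14.6 and 11.3 RPKM across shControl replicates 1 to 3. Clic6, a member of the chloride intracellular channel family, measured 16.0, 12.4 and 0.608 RPKM across shHepaCAM replicates 1 to 3, against 2.02, 31.6 and 21.4 RPKM across shControl replicates 1 to 3. Clic6 had separate 95% Poisson intervals in the low libraries. They ran from 0.432 to 0.831 RPKM in shHepaCAM replicate 3 and from 1.69 to 2.39 RPKM in shControl replicate 1. Ttr, Enpp2 and Kl likewise had separate intervals in these libraries. Slc4a5, a sodium bicarbonate cotransporter, measured 3.88, 2.69 and 0.0946 RPKM across shHepaCAM replicates 1 to 3, against 0.0906, 8.21 and 6.23 RPKM across shControl replicates 1 to 3. In each of the low libraries Slc4a5 rested on 9 reads, and these values differed by less than counting error.

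Kcnj13, the inward rectifier potassium channel Kir7.1, measured 3.29, 2.44 and 0.384 RPKM across shHepaCAM replicates 1 to 3, against 0.0920, 7.90 and 5.76 RPKM across shControl replicates 1 to 3. The low libraries rested on 8 reads in shHepaCAM replicate 3 and 2 reads in shControl replicate 1, with overlapping Poisson intervals of 0.166 to 0.758 RPKM and 0.0111 to 0.332 RPKM. Kcnj13 overlaps Gigyf2, Folr1 overlaps Anapc15 and Enpp2 overlaps Gm26684, each on the opposite strand. Clic6 overlaps 2410124H12Rik and Prlr overlaps Gm21973, each on the same strand. Whether the authors counted by strand is not given in the sources used. Reads from opposite-strand partners cannot be told apart without strand, and strand does not separate same-strand partners. Gm26684 and 2410124H12Rik averaged 0.284 and 0.158 RPKM over the 6 libraries, and Gm21973 had no deposited value. Gigyf2 stood between 5.78 and 6.48 RPKM in shHepaCAM and between 5.31 and 5.70 RPKM in shControl, and Anapc15 between 0.796 and 1.03 RPKM in shHepaCAM and between 0.736 and 0.827 RPKM in shControl. In the low libraries Gigyf2 was at 5.99 RPKM in shHepaCAM replicate 3 and 5.70 RPKM in shControl replicate 1, within its range in the other 4, and Anapc15 at 1.03 and 0.736 RPKM, its highest and lowest values, while Kcnj13 and Folr1 were at their lowest in both.

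Promoter windows of 3 of the genes are shown as a description of their sequence. RefSeq windows on build GRCm38.p6, which is not the build the submitters name, were at hand for Kcnj13, Kl, Aqp1, Slc4a5 and Prlr, 5 of the 10 genes, with 7 windows in all. Each runs 5′ to 3′ on the strand of the gene, from 250 bases before to 50 bases after an annotated start. Slc4a5 and Kcnj13 are shown as ion transport genes with under 10 reads in each of the low libraries, and Prlr for the single motif match found.
Slc4a5, chr6:83237125-83237424, plus strand: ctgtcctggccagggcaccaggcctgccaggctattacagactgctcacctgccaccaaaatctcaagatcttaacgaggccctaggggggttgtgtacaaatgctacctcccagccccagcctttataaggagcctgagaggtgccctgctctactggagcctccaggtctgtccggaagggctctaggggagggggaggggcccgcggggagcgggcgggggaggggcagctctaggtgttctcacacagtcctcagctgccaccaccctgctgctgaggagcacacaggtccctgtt
Kcnj13, chr1:87394680-87394979, minus strand: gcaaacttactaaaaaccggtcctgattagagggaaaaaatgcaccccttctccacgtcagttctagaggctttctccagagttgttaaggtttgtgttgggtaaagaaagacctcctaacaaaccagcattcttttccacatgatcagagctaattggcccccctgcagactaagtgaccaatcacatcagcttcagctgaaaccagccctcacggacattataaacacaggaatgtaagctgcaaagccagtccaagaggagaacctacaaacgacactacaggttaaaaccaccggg
Prlr, chr15:10223656-10223955, plus strand: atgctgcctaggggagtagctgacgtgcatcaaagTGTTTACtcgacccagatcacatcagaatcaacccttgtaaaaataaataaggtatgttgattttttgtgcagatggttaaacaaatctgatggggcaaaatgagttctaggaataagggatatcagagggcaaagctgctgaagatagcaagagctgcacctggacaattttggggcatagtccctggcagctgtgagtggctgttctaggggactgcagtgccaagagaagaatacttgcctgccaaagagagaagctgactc
Capitals mark the letters TGTTTAC, a core bound by forkhead factors. On either strand, the 7 windows held TGTTTAC in 1, the Prlr window shown, and TAATCC, a core bound by OTX2, in 0. Of 32851 promoter windows of all genes, 3.65% held TGTTTAC and 7.06% held TAATCC. A match describes the letters of a window only.

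Levels relative to Ttr were steady in the 4 libraries with the higher levels and differed in the low pair. In those 4 libraries each of the other 9 genes kept a share of the Ttr RPKM that varied by 1.21-fold for Slc4a5 to 1.68-fold for Sostdc1. Enpp2 was at 16.6 and 19.0% of Ttr in shHepaCAM replicates 1 and 2, against 13.7 and 11.5% in shControl replicates 2 and 3. In the low libraries it was at 158% of Ttr in shHepaCAM replicate 3 and 77.4% in shControl replicate 1. Kl likewise was at 0.503, 0.543 and 8.76% of Ttr in shHepaCAM replicates 1, 2 and 3, against 4.47, 0.504 and 0.417% in shControl replicates 1, 2 and 3. Slc4a5 varied least, at 0.170, 0.162 and 0.371% of Ttr in shHepaCAM replicates 1, 2 and 3, against 0.146, 0.196 and 0.172% in shControl replicates 1, 2 and 3. Enpp2, Kl and Sostdc1 therefore kept more of their level than Ttr where Ttr was low, and Slc4a5 and Aqp1 were lower there by a factor closer to that of Ttr. Aqp1 was at 1.18% of Ttr in shHepaCAM replicate 3 and 0.644% in shControl replicate 1, against 0.270 to 0.348% in the other 4 libraries.

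**Figure D2:**
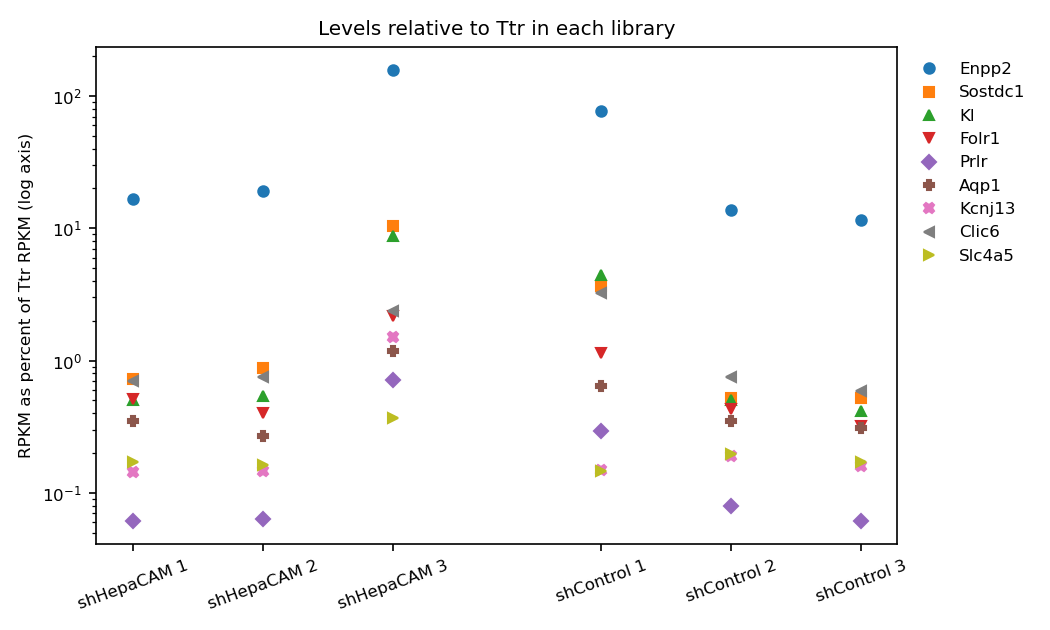
RPKM of the other 9 genes as a percent of Ttr RPKM in the same library, on a log axis, for the 3 shHepaCAM libraries (left) and the 3 shControl libraries (right), with 1 symbol per gene. Enpp2 reaches 158% in shHepaCAM replicate 3 and 77.4% in shControl replicate 1, while Slc4a5 stays between 0.146 and 0.371% in all 6.

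By RPKM, Ttr and Enpp2 led in every library and the order below them changed between libraries. Ttr was the highest and Enpp2 the next in 5 libraries, and Enpp2 was above Ttr in shHepaCAM replicate 3. Clic6, Sostdc1, Kl and Folr1 followed in changing order. Their group means were 9.67 ± 8.05, 11.3 ± 7.49, 7.57 ± 4.78 and 6.32 ± 5.57 RPKM in shHepaCAM, against 18.4 ± 15.05, 14.4 ± 10.6, 13.0 ± 9.36 and 10.05 ± 8.70 RPKM in shControl (SD, n = 3 each). The SDs hold the differences between libraries that these genes share, so neighbours are compared within libraries. Sostdc1 was above Folr1 in all 6 libraries and Kl above Folr1 in 5, all but shHepaCAM replicate 1, while Clic6 was above Sostdc1 in shControl replicates 2 and 3 only. Aqp1 came next at 4.23 ± 3.81 RPKM in shHepaCAM and 8.76 ± 7.43 RPKM in shControl (SD, n = 3 each). Slc4a5, Kcnj13 and Prlr were last, at 2.22 ± 1.93, 2.04 ± 1.49 and 0.880 ± 0.627 RPKM in shHepaCAM and 4.84 ± 4.23, 4.58 ± 4.03 and 1.92 ± 1.60 RPKM in shControl (SD, n = 3 each). In the 4 libraries where the group was high, Prlr lay below both others with separate Poisson intervals, and those of Slc4a5 and Kcnj13 overlapped. In the low libraries Slc4a5 had the lowest value of the 10, with an interval that overlapped that of Prlr.

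With all 6 libraries, none of the 10 genes was called different between shHepaCAM and shControl by limma at an adjusted p of 0.05, and 0 had an unadjusted p under 0.05. Of all 13864 genes tested, 6.07% were called and 24.2% had an unadjusted p under 0.05. The calls over all genes were 587 higher and 255 lower, a split that was 390 and 341 with quantile normalization and 336 and 347 after scaling by the median gene. All 10 estimates were below 0, as were 39.6% of all genes tested. The median log2 change of the 10 was -0.57, where the median of all genes tested was 0.05. The estimates ran from -0.19 for Sostdc1 to -1.08 for Ttr, and the adjusted p-values from 0.571 for Prlr to 0.91 for Sostdc1. The genes share the same libraries, so their common direction is not 10 separate observations. The 95% confidence interval of Ttr ran from -6.09 to 3.92 and that of Prlr, the narrowest, from -1.66 to 0.65, so these data leave a wide span of changes in either direction. The log2(RPKM + 1) scale narrows the intervals of low genes. With 0.1 added in place of 1, the interval of Prlr ran from -3.15 to 1.67. Kl then had the narrowest, from -2.63 to 1.36. Groups overlapped for all 10, whereas 31.5% of all genes tested had groups that did not overlap. An exact two-sided permutation test on the log2 values gave p = 0.5 to 0.6 over the 10 genes, where 3 libraries against 3 cannot go below 0.1. By limma-voom on recovered whole reads, 0 of the 10 were called, against 1079 of all 13864 genes tested.

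The estimate turned on single libraries. Without shHepaCAM replicate 3 the log2 change of Ttr was 0.98 (limma adjusted p = 0.776), and without shControl replicate 1 it was -3.07 (limma adjusted p = 0.386). Without shHepaCAM replicate 3, 8 of the 10 estimates were above 0, and without shControl replicate 2, 4 were. Of all genes tested, 38.6% and 40.0% were below 0 in these fits. With shHepaCAM replicate 3 and shControl replicate 1 both left out, all 10 estimates were below 0, as were 38.4% of all genes tested. The 10 had a median of -0.80 (range -1.01 to -0.38), and 0 passed the adjusted threshold. The libraries left out are named by the level of these very genes, so the comparison of the remaining 4 describes them and gives no independent support. There, 9 of the 10 had an unadjusted limma p under 0.05, all lower in shHepaCAM, the exception being Folr1. Leaving out the libraries where these genes were lowest also removed most of the spread within each group. The SE of Ttr was 0.21 without them, against 2.13 with all 6 libraries. The p-values and intervals of the remaining 4 therefore do not serve as tests. In that fit 5.9% of the 13904 genes tested had an unadjusted p under 0.05 and were lower, and 0.87% of genes passed the adjusted threshold. The adjusted p-values of the 10 ran from 0.0734 for Kcnj13 to 0.296 for Folr1. Kcnj13 changed by -1.01 (95% confidence interval -1.45 to -0.57) and Ttr by -1.001 (-1.52 to -0.48). In levels, shControl replicates 2 and 3 each exceeded shHepaCAM replicates 1 and 2 for 9 of the 10 genes, a pattern held by 19.0% of all genes tested.

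**Figure D3:**
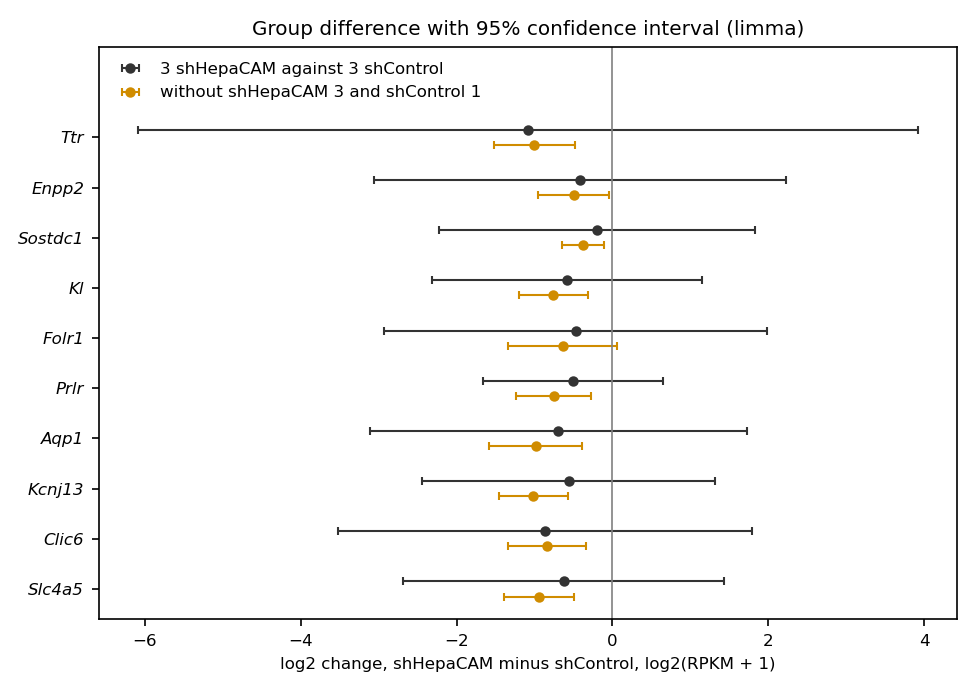
Log2 change, shHepaCAM minus shControl, on the log2(RPKM + 1) scale with 95% confidence intervals from limma, for all 6 libraries (black) and without shHepaCAM replicate 3 and shControl replicate 1 (amber). The 6-library intervals all span 0, from -6.09 to 3.92 for Ttr, and the 4-library intervals lie below 0 for all but Folr1 without any passing the adjusted threshold. The libraries left out were named by the level of these same genes, so the amber intervals are descriptive.

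The other genes of the epithelium had the same lowest libraries. From 4 lists of further choroid plexus genes, 38 genes were in the files and 37 passed the filter. By limma 0 of these rose and 0 fell, and 0 had an unadjusted p under 0.05. Of all genes tested, 6.07% were called and 24.2% had an unadjusted p under 0.05. The median log2 change of the 37 was -0.49, against 0.05 for all genes tested. In 36 of the 37, shHepaCAM replicate 3 and shControl replicate 1 were the lowest libraries, as they were in 6.87% of all genes tested. The lists were chosen with earlier results of these data known, so this count is a description and no independent support. The exception was Atp1b1, a sodium pump subunit that neurons also express, with its lowest level of 362 RPKM in shHepaCAM replicate 2.

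By role, the transcription factor Otx2, needed to form and keep the plexus, measured 3.42, 3.34 and 0.234 RPKM across shHepaCAM replicates 1 to 3, against 0.895, 8.23 and 7.17 RPKM across shControl replicates 1 to 3. Msx1, a homeobox factor, averaged 5.62 RPKM over the 6 libraries, and Lmx1a lay under the filter. Among 11 carriers and secreted proteins tested (median log2 change -0.49), the most abundant were Igfbp2, 1500015O10Rik, Igf2 and Col9a3. Igf2, a growth factor of plexus and meninges, measured 30.5, 24.3 and 8.96 RPKM across shHepaCAM replicates 1 to 3, against 10.4, 55.2 and 41.0 RPKM across shControl replicates 1 to 3. Igfbp2, which binds insulin-like growth factors, measured 42.9, 33.9 and 15.2 RPKM across shHepaCAM replicates 1 to 3, against 19.0, 88.9 and 70.8 RPKM across shControl replicates 1 to 3. Both kept more of their level in the low libraries than Ttr did.

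Among 15 genes of ion, water and solute transport (median log2 change -0.36), the most abundant after Atp1b1 were Slc29a4, Slc4a10 and Slc12a2. Slc12a2, the sodium-potassium-chloride cotransporter of the apical membrane, measured 12.7, 14.9 and 7.97 RPKM across shHepaCAM replicates 1 to 3, against 9.73, 14.98 and 14.6 RPKM across shControl replicates 1 to 3. The low libraries were lower for Slc12a2 by far less than for Slc4a5. Slc4a10, a sodium bicarbonate transporter that neurons also express, ran from 18.5 to 24.2 RPKM in shHepaCAM and from 22.1 to 31.2 RPKM in shControl. Among 9 junction, epithelial and other marker genes (median log2 change -0.53), Cldn2, a claudin of leaky tight junctions, measured 4.53, 3.28 and 0.0551 RPKM across shHepaCAM replicates 1 to 3, against 0.176, 10.9 and 7.81 RPKM across shControl replicates 1 to 3. Krt18, an epithelial keratin, measured 4.29, 3.90 and 0.392 RPKM across shHepaCAM replicates 1 to 3, against 0.710, 9.43 and 8.48 RPKM across shControl replicates 1 to 3. Spint2 and Cab39l were the most abundant of these 9, with means of 8.49 and 6.20 RPKM over the 6 libraries.

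Most of the ranked genes nearest to the profile of Ttr were on the lists of the same epithelium. The 10 members, predicted genes, clone names and pseudogenes were left out of this ranking. Among the clone names was 1500015O10Rik, which is on those lists. Likeness was the root mean square difference between 2 genes' log2(RPKM + 0.1) deviations from their own means over the 6 libraries, given as a description. Cldn2 was the nearest of the genes ranked, at 0.61, followed by Kcne2, a potassium channel subunit, at 0.63, where the median of all genes tested was 2.94. Next came Mfrp at 0.82, a frizzled-related membrane protein, F5 at 0.83, coagulation factor V, and Wfdc2 at 1.01, a secreted protein of many epithelia. Tmem72, Col8a1, Prr32, Defb11, Krt8, Krt18, Steap1, Otx2, Lbp and Ace completed the 15 nearest of the genes ranked, at 1.06 to 1.52. Of these 15, 11 were in the lists of choroid plexus genes, which were chosen with earlier results known, and Mfrp, Wfdc2, Prr32 and Defb11 were not. Mfrp measured 4.43, 3.66 and 0.169 RPKM across shHepaCAM replicates 1 to 3, against 0.189, 14.3 and 8.69 RPKM across shControl replicates 1 to 3. Defb11, a beta-defensin, was listed at 0 in shHepaCAM replicate 3 and at 0.922 RPKM in shControl replicate 1. Measured the same way, the members Slc4a5, Aqp1, Clic6, Folr1, Kcnj13 and Enpp2 lay at 0.78, 0.90, 1.02, 1.07, 1.30 and 1.41 from Ttr, nearer than the last of these 15, and Prlr, Sostdc1 and Kl lay at 1.62, 1.64 and 1.78. None of the 15 was called between the groups, with limma adjusted p-values of 0.391 to 0.811, where 6.07% of all genes tested were called.

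**Figure D4:**
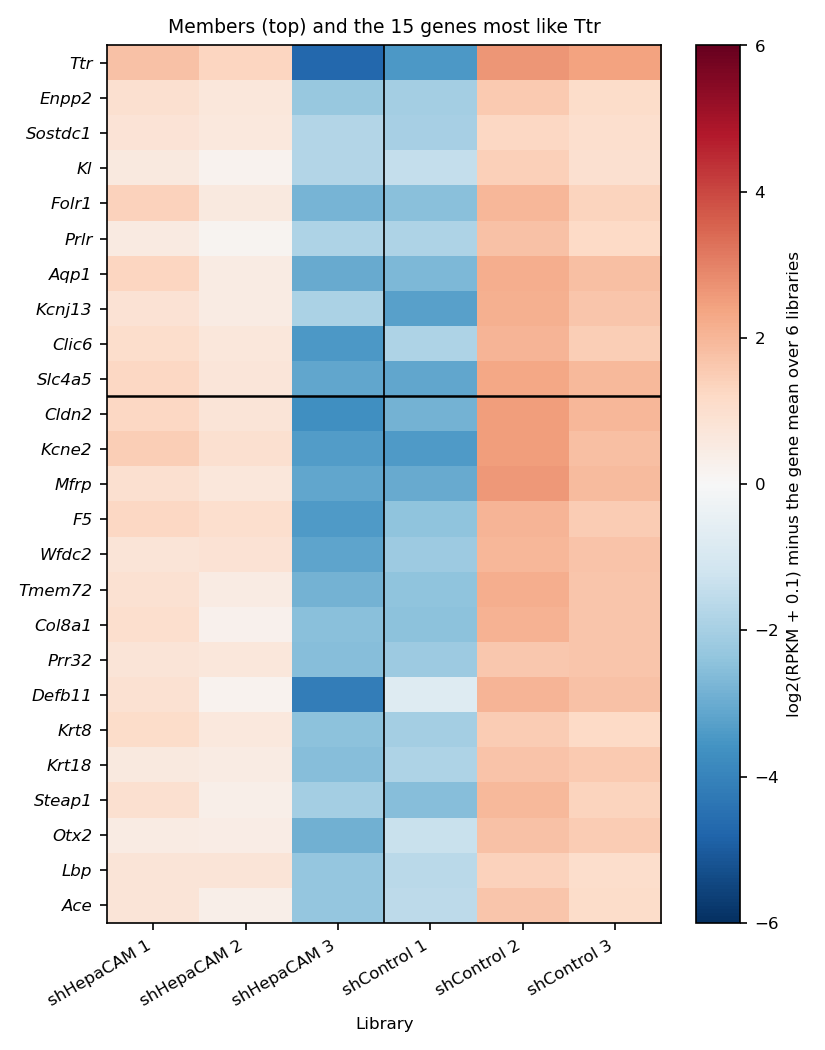
Heat map of log2(RPKM + 0.1) minus each gene's mean over the 6 libraries, for the 10 members (above the line) and the 15 ranked genes whose profile is most like Ttr (below it), with shHepaCAM libraries left and shControl libraries right. Predicted genes, clone names and pseudogenes were not ranked. The columns of shHepaCAM replicate 3 and shControl replicate 1 are blue in all 25 rows.

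Marker lists of neighbouring cells and of the hippocampus had narrower median ranges over the libraries than the members. The members had a median log2 range of 4.98 over the 6 libraries and the other 37 choroid plexus genes one of 3.31, against 0.45 for all genes tested. All 10 members and 21 of the 37 others spanned at least 8-fold, as did 2.15% of all genes tested. Hippocampal neuron markers, 7 of 7 tested, had a median range of 0.70 and summed to 272 to 347 RPKM in shHepaCAM and 280 to 296 RPKM in shControl. None of these was at 0, and Neurod6, C1ql2, Wfs1 and Fibcd1 were the most abundant, so the labelled tissue was present in all 6 libraries. Astrocyte markers, among them Gfap, Aldoc, Slc1a3 and Aqp4, had a range of 0.43, oligodendrocyte markers, among them Mbp, Mobp, Cldn11 and Cnp, 0.65, and endothelial markers, among them Cldn5, Ly6c1, Plvap and Slco1a4, 0.71. The median range was 2.30 for blood genes, of which all 3 tested spanned at least 4-fold, 1.40 for fibroblast and meningeal markers, 1.35 for ependymal genes and 1.04 for thalamus and habenula markers. In the neuron, astrocyte, oligodendrocyte and endothelial lists, shHepaCAM replicate 3 and shControl replicate 1 were the lowest pair for 0 genes.

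Ependymal cells, which line the ventricles and carry motile cilia, shared the lowest libraries for part of their genes. Their 10 genes, led by Foxj1, Rsph1, Dynlrb2 and Ccdc153, summed to 39.9, 46.4 and 19.5 RPKM across shHepaCAM replicates 1 to 3, against 25.7, 35.3 and 51.0 RPKM across shControl replicates 1 to 3. The sum was thus lowest in the same pair of libraries, and for 5 of the 9 genes tested that pair was the lowest, but shHepaCAM replicate 2 exceeded shControl replicate 2, unlike in the members. Choroid plexus cells also express some cilia genes, and the part of ependyma in the levels of the 10 members was not tested. Fibroblast and meningeal markers, led by Dcn, Aldh1a2, Slc6a13 and Ogn, summed to 11.1 to 25.7 RPKM in shHepaCAM and 12.5 to 17.4 RPKM in shControl, and the pair was lowest for 2 of 7. Blood genes, led by Hbb-bs, Hba-a1 and Hbb-bt, summed to 5.55 to 7.08 RPKM in shHepaCAM and 7.90 to 21.3 RPKM in shControl. Thalamus and habenula markers, led by Prkcd, Zic1, Rora and Tcf7l2, summed to 10.9 to 16.0 RPKM in shHepaCAM and 10.5 to 15.4 RPKM in shControl. Ttr is also a liver gene, and 5 liver markers summed to 0.588 to 1.34 RPKM in shHepaCAM and 0.534 to 1.44 RPKM in shControl. Alb, the defining liver transcript, was at 0 in shHepaCAM replicates 1 and 3 and in shControl replicate 2, and was highest at 0.953 RPKM in shHepaCAM replicate 2; the part of liver RNA in the Ttr level was not tested. By limma, 0 genes of these lists rose and 0 fell, where 6.07% of all genes tested were called. List medians ran from -0.78 for blood to 0.35 for fibroblasts and meninges.

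**Figure D5:**
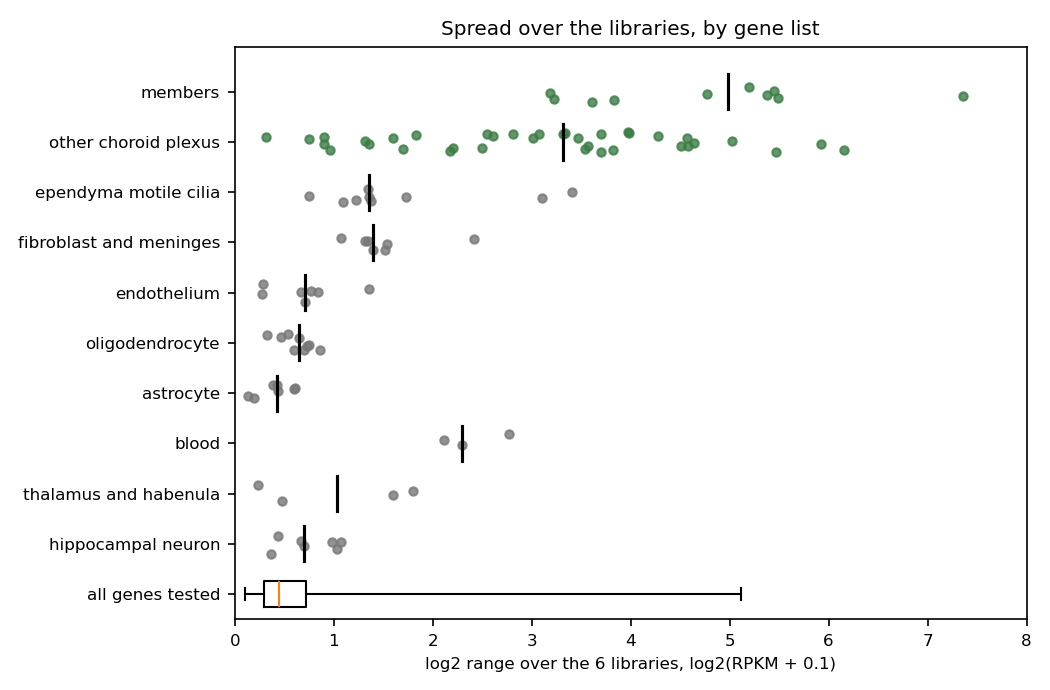
Log2 range over the 6 libraries, on the log2(RPKM + 0.1) scale, of each tested gene (points) by list, with black bars at list medians and a box for all 13864 genes tested (box, quartiles; whiskers, percentiles 1 to 99). The members have a median range of 4.98, other choroid plexus genes 3.31 and all genes 0.45.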

How the data were processed

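RNA of 3 shHepaCAM and 3 shControl hippocampus libraries was analysed, grouped by title. The deposited values are RPKM made by the authors, a unit taken from the values themselves; per the submitters' processing notes, TopHat2 2.0.12, Bowtie2 2.0.6 and build mm39 were used. No source used here gives the counter, annotation or strand setting. Symbols and exon lengths came from GENCODE M21, matching 29805 of 29872 identifiers. Depth and whole reads were worked out from the RPKM steps: 27390 genes were whole within 0.01 read in every library with annotated lengths and 2268 more, Ttr and Enpp2 among them, with a step of their own. Intervals on reads are exact Poisson at 95% and cover counting error only.

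The main test was limma 3.58.1 with trend in R 4.3.3 on log2(RPKM + 1), over 13864 genes that averaged 1 RPKM or more, Benjamini-Hochberg adjusted, checked on simulated data. This scale understates changes of low genes. No library repeated another: per degree of freedom, the chi-square of reads was 4.09 for the most alike pair, above sampling noise. Named genes are the members, Hepacam, genes that overlap members and the 15 genes nearest to Ttr (without members, predicted genes, clone names and pseudogenes). Per list, the 4 most abundant or those called are named as well. Atp1b1, Cldn2, Krt18, Otx2 and Slc12a2 were described in full after their values were seen. A gene of the oligodendrocyte list is not reported here and was left out of its sums. Members and lists were chosen with earlier results of these data known. Figures were drawn with matplotlib 3.10.9.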

Additional observations from a re-analysis of the deposited data

How the results depend on the processing

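None of the 10 choroid plexus genes was called higher or lower in any of the 15 alternatives, with adjusted p-values from 0.0734 to 0.997. A filter at 5 RPKM left 7 members. With another pseudocount, filter, scaling or trend setting, the block or limma-voom, 39.6 to 55.5% of all genes tested were below 0. Log2 changes were below 0 for every tested member in these fits. With single libraries left out, they ran from -3.07 to 0.98 for Ttr, -1.52 to 0.61 for Enpp2, -1.10 to 0.53 for Sostdc1, -1.35 to 0.0176 for Kl, -1.53 to 0.42 for Folr1, -1.06 to -0.12 for Prlr, -1.79 to 0.12 for Aqp1, -1.50 to 0.00847 for Kcnj13, -1.92 to 0.21 for Clic6 and -1.59 to 0.0244 for Slc4a5. The positive values came without shHepaCAM replicate 3, shControl replicate 2 or shControl replicate 3. The count of genes called over the whole table was 842; it was 169 with no filter, 157 with the replicate number as a block, 121 without both shHepaCAM replicate 3 and shControl replicate 1, and 85 to 880 with single libraries left out. Same-numbered libraries did not deviate together (correlations of -0.21, 0.02 and -0.14 for replicates 1, 2 and 3). No pairing by number was thus seen, and 3 libraries per group cannot settle whether one exists. Of the 15 genes nearest to Ttr, 12 remained with a pseudocount of 1 and 14 with the profile of Folr1.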
